A study of Mus musculus with 12 samples.

Results

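Gdf9 and Bmp15 encode a pair of growth factors that the oocyte secretes to the somatic cells around it. They are 2 of the 24062 gene symbols counted in this study of mouse oocytes, were chosen by name, and were followed through all 12 libraries by diet and by pool, together with their ratio. Female mice, 6 on each feed, ate either a diet rich in fat (HFD) or a control one (CD) during 9 weeks. All were given the control diet while they were mated with vasectomized males, and unfertilised oocytes were collected at day 0.5 after mating. Libraries were prepared from 4 pooled oocytes, with 6 such pools on either diet. The labels do not say which female gave which pool, so p-values cover only pool-to-pool spread, which may be technical. The labels use 1 product code for the feeds, with the HFD described as modified, which leaves the composition of the control feed uncertain. Strain and age were not given in the sources used here.

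GDF9 and BMP15 belong to the TGF-beta superfamily. Both are made as long precursors, are cut by furin-type convertases, and bind the receptor BMPR2 on granulosa and cumulus cells together with a partner receptor, TGFBR1 for GDF9 and BMPR1B for BMP15. GDF9 then acts mainly through SMAD2 and SMAD3, and BMP15 through SMAD1 and SMAD5. In mice, follicles without GDF9 stop early in their growth, and around ovulation the factors help to drive expansion of the cumulus.

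Both genes have a coding transcript of 2 exons. Gdf9 lies on the forward strand of chromosome 11, 53431023 to 53437904 (mm10, GENCODE), and Bmp15 on the reverse strand of chromosome X, 6314107 to 6320721. The coding transcripts measure 1793 nt for Gdf9, of which 1323 nt are coding sequence, and 3060 nt for Bmp15, of which 1176 nt are. No other annotated gene overlaps either of them in that annotation.

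Of the 2 genes, 1 had an entry in the RefSeq table of promoters (GRCm38.p6), and its sequence is shown because regulators of the oocyte that bind such motifs are measured further on. The 250 bases before the start of Bmp15, chrX:6320725-6320974 on the reverse strand, read 5′ to 3′ as follows, with capitals marking the match to TAATTN, the core letters bound by the homeodomain protein NOBOX.
Bmp15 upstream: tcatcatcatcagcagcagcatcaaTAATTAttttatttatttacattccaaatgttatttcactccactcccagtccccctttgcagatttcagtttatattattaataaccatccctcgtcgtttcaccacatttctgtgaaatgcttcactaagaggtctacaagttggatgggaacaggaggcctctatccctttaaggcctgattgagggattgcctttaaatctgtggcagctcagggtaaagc
The match lies at −225 to −220 from the start and reads the same on both strands. TAATTN was found on either strand in 24.9% of the 32851 promoter windows of that length. The letters CANNTG, the E-box to which FIGLA and other basic helix-loop-helix proteins bind, were present at −201 to −196, without overlap with the first motif, and in 66.2% of windows.

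Gene counts summed to between 8409491 and 13793598 per library, and 12229 to 14755 genes were detected. All counts were even in 4 HFD libraries (replicates 1, 2, 4 and 6), and halving them changed neither gene's direction nor its side of the threshold. HFD replicate 3 had the most genes detected, and CD replicate 3 had the strongest tilt of expression towards long transcripts. Of 15 oocyte markers, 14 were tested, and they summed to 17170 to 53406 CPM (reads per 1e6 gene counts, scaled between libraries by TMM). Btg4 and H1foo had the highest means among them, while Mos went down to 3.84 CPM. Figla, the marker not tested, held 54.7 CPM in HFD replicate 3 and at most 0.88 CPM in every other pool.

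Gdf9 fell into 2 separate ranges in both diets. In the HFD pools, replicates 1 to 6, it stood at 616, 556, 4601, 9642, 5602 and 4678 CPM. In the CD pools, replicates 1 to 6, it stood at 5498, 543, 7929, 589, 5640.2 and 7953 CPM. Thus 4 pools, 2 of each diet, held 543 to 616 CPM, the other 8 held 4601 to 9642 CPM, and no pool lay between. The step from the highest of the 4 to the lowest of the 8 was 7.47-fold, while the next widest step between neighbours in the order was 1.41-fold. Even the smallest number of Gdf9 reads, in CD replicate 4, was 4732. A low level in a pool can mean less of the transcript in each oocyte or some oocytes in the pool that carry little of it. Which of these holds was not tested. Within each range, pools of the diets overlapped.

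Bmp15 did not follow that division. It stood at 493, 765, 921, 1010.05, 295 and 241 CPM in HFD replicates 1 to 6 and at 489, 542, 1880.0, 629, 680 and 653 CPM in CD replicates 1 to 6. The 4 pools with 543 to 616 CPM of Gdf9 held 493, 765, 542 and 629 CPM of Bmp15, in the middle of its range. The lowest values came from HFD replicates 5 and 6, both in the upper range of Gdf9, and the highest came from CD replicate 3. The other 5 CD pools lay within 489 to 680 CPM, so the HFD pools extended both above and below them.

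**Figure D1:**
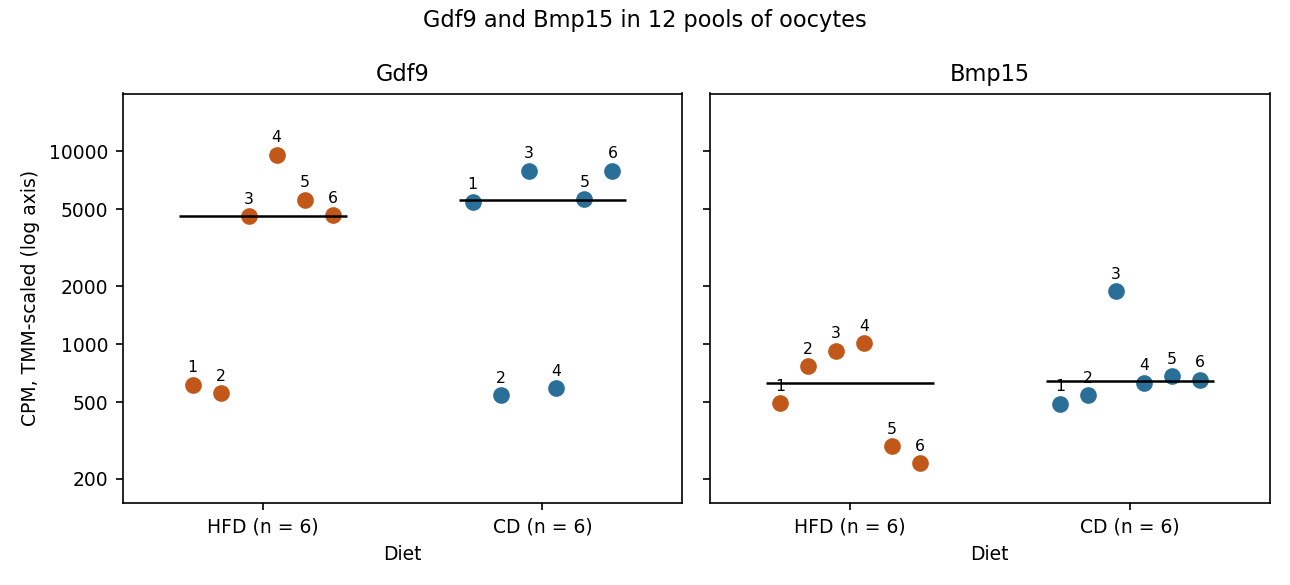
Gdf9 (left) and Bmp15 (right) in TMM-scaled CPM on a log axis, with 1 point per library, its replicate number above it and a line at the median of each diet (n = 6). Gdf9 stood at 543 to 616 CPM in 4 pools and at 4601 to 9642 CPM in 8, with nothing between, whereas Bmp15 was spread from 241 to 1880.0 CPM.

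The diet difference of Gdf9 and Bmp15 was smaller than the spread between pools. Gdf9 averaged 4282 ± 3408 CPM in HFD and 4692 ± 3368 CPM in CD (SD, n = 6 each), and its log2 fold change, HFD minus CD, had a 95% interval of −1.73 to 1.47 (edgeR quasi-likelihood test, adjusted p = 0.935). Bmp15 averaged 621 ± 325 CPM in HFD and 812 ± 528 CPM in CD, with a 95% interval of −1.28 to 0.51 (edgeR, adjusted p = 0.622). The intervals leave room for a difference of over 2-fold in either direction for Gdf9, and for a lower but not a higher Bmp15 of that size. Of the 9935 genes tested with edgeR, 0% passed an adjusted p of 0.05, and 22.3% had an unadjusted p under 0.05. DESeq2 called 7.42% of the genes it tested, and neither Gdf9 nor Bmp15 was among them (DESeq2, adjusted p = 0.928 and 0.629). Without CD replicate 3 the log2 fold change was 0.025 for Bmp15, where it was −0.39 with all libraries.

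Among genes of at least 100 CPM, the spread of Gdf9 was near the upper end. Its within-diet SD was 1.80 on the log2 scale, above that of 98.1% of these 1668 genes, whose median was 0.55. Bmp15 had an SD of 0.79, above 79.8% of them. The biological coefficient of variation estimated by edgeR was 85.7% for Gdf9 and 52.5% for Bmp15, against 47.8% and 48.6% for the trend at their levels.

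The ratio of the genes therefore moved with Gdf9. Per kilobase of transcript, Gdf9 reads exceeded those of Bmp15 in every pool. That ratio was 2.13, 1.24, 8.52, 16.3, 32.4 and 33.1 in HFD replicates 1 to 6 and 19.2, 1.71, 7.20, 1.60, 14.2 and 20.8 in CD replicates 1 to 6. In the 4 pools of low Gdf9 the factors were thus within 2.13-fold of each other, and elsewhere Gdf9 was ahead by at least 7.20-fold. The 2 highest ratios, in HFD replicates 5 and 6, coincided with the lowest Bmp15 levels rather than with unusual Gdf9.

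The log2 ratio of counts averaged 2.33 ± 2.01 in HFD and 2.02 ± 1.69 in CD (SD, n = 6 each). The difference of 0.30 asks whether the diet acted differently on the 2 genes, and it was far within the spread of pools (exact permutation test of the means, two-sided, p = 0.751). The smallest p this test can give is 0.00216. A ratio of counts within a library does not depend on the scaling between libraries.

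**Figure D2:**
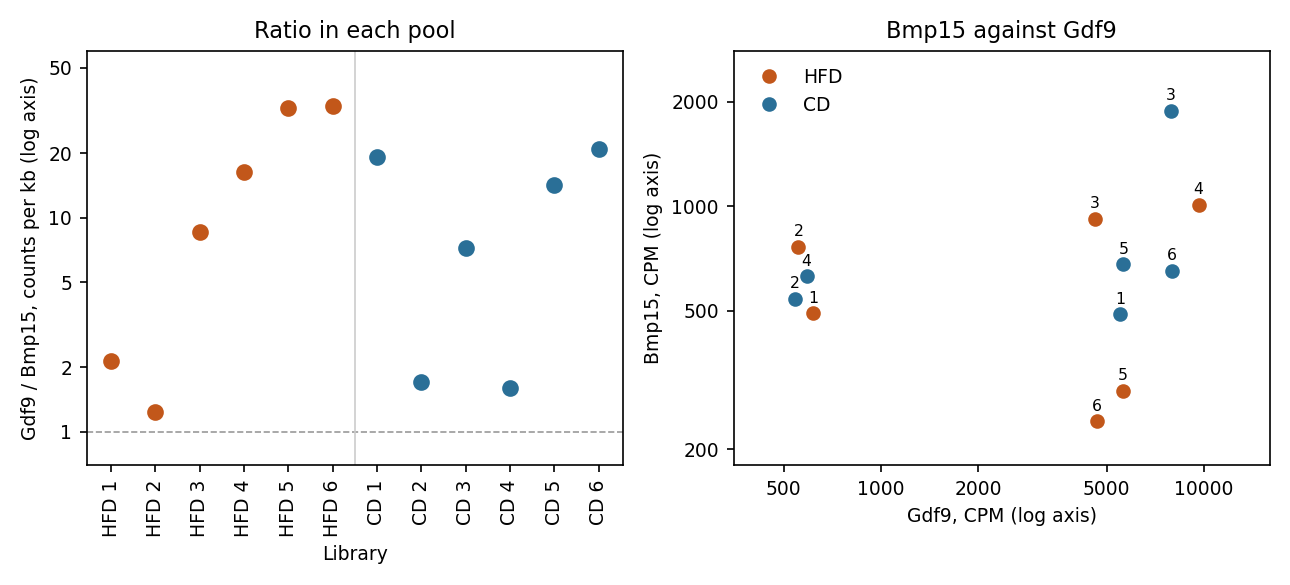
Left, the ratio of Gdf9 to Bmp15 counts per kilobase in each library on a log axis, with a dashed line at 1. Right, Bmp15 against Gdf9 in CPM, both on log axes, with replicate numbers. Ratios ran from 1.24 to 2.13 in 4 pools and from 7.20 to 33.1 in the other 8.

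Ranked by reads per kilobase among the genes with a known length, Gdf9 was the 8th to 39th most abundant gene in the 8 pools of its upper range and the 246th to 280th in the others. Bmp15 ranked between 93rd, in CD replicate 3, and 925th, in HFD replicate 6. Its rank in 8 of the 12 pools was between 265 and 398, and the exceptions beside CD replicate 3 were HFD replicates 1, 5 and 6, at 516, 666 and 925.

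No relation across libraries held up. Because Gdf9 fell into separate ranges, it was related to other measures only within the 8 pools of its upper range. There Gdf9 and Bmp15 had Pearson's r = 0.58 and Spearman's rho = 0.48 (n = 8, exact permutation p = 0.133 and 0.243, adjusted p = 0.690 and 0.793). Without the 2 pools farthest from the median of Bmp15, r was 0.33. In all, 16 relations were computed, of Gdf9, Bmp15 and their log2 ratio with total counts, genes detected, reads given to no gene, the slope of expression on transcript length and summed cumulus markers. None had an adjusted p under 0.05 or an unadjusted p under 0.05 (permutation tests).

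The genes whose pattern was most like that of Gdf9 were Abcb1b, a drug efflux pump, Atp6ap2, the prorenin receptor, Bub1b, a kinase-like protein of the spindle checkpoint, Sumo2, a small ubiquitin-like modifier, and Pdia6, a protein disulfide isomerase. Likeness was Pearson's r of log2 CPM over 12 libraries after the mean of each diet was removed, among 5961 other genes of at least 10 CPM on average. It was 0.990, 0.989, 0.988, 0.988 and 0.986 for these 5, whose points lay in 2 ranges as those of Gdf9 did. In all, 4.14% of the genes had r above 0.9 with Gdf9 and 1.85% had r below −0.9.

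The same 4 pools were lowest for each of the 5. Their choice by likeness to Gdf9 over these pools makes that likely, so it is not a separate result. Sumo2 stood at 0.18 to 0.32 CPM in them and at 17.6 to 70.9 CPM in the other 8. Bub1b stood at 12.3 to 20.1 CPM in them and at 198 to 1532 CPM elsewhere, where CD replicate 3 was highest. Abcb1b ran from 4.97 to 8.46 CPM and from 80.5 to 260 CPM. For all 3 the step between the ranges was wider than for Gdf9. It was narrower for Atp6ap2, from 7.55 to 44.6 CPM, and for Pdia6, from 12.6 to 57.6 CPM.

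Bmp15 had no close companion. The 5 genes most like it were Entpd5, a nucleoside diphosphatase of the endoplasmic reticulum, Cers6, a ceramide synthase, Nt5c2, a cytosolic nucleotidase, Mtf1, the metal-responsive transcription factor, and Cdc42, a small GTPase of cell polarity, with r of 0.867, 0.853, 0.838, 0.828 and 0.815. None of the genes compared had r above 0.9 or below −0.9 with Bmp15. Entpd5, Cers6 and Mtf1 were highest in CD replicate 3, at 52.9, 233 and 307 CPM, as Bmp15 was. Gdf9 and Bmp15 themselves had r = 0.15, and 2541 genes were more like Gdf9 than Bmp15 was.

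**Figure D3:**
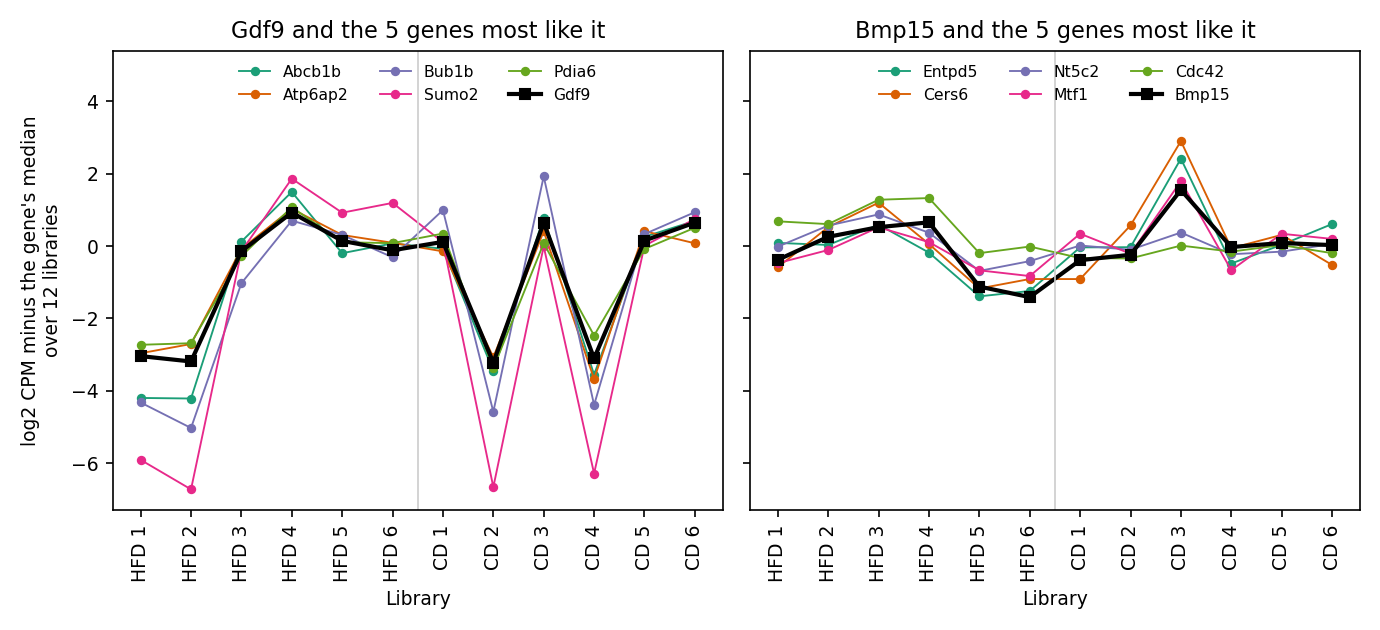
log2 CPM of Gdf9 (left) and Bmp15 (right), in black, and of the 5 genes most like each, in colour, after subtraction of the gene's median over 12 libraries. All 6 lines on the left dip in HFD replicates 1 and 2 and CD replicates 2 and 4, and the lines on the right do not.

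Oocyte identity markers were divided over these patterns. Of the 14 at or above 10 CPM, 3 had r above 0.9 with Gdf9. These were Mos, the kinase that holds the egg in metaphase arrest (r = 0.98), Zar1, a binder of maternal messenger RNA (r = 0.97), and H1foo, the linker histone of the oocyte (r = 0.95). Mos stood at 3.84 to 9.40 CPM in the 4 pools of low Gdf9 and at 146 to 1702 CPM in the other 8. The median r of the 14 was 0.50. Oosp1, Zp3 and Kit had r of 0.78, 0.78 and 0.72, and Ddx4 and Zp1 had 0.53 and 0.47. Zp3, a zona pellucida protein, was also lowest in the 4 pools of low Gdf9, at no more than 15.1 CPM, and stood at 46.0 to 3942 CPM elsewhere, with the maximum in HFD replicate 3. By contrast, Nobox and Padi6 had r of −0.65 and −0.30, Zp2 and Nlrp5 had 0.19 and 0.04, and Dazl and Btg4, which act in translation and decay of maternal messages, had r of −0.13 and −0.23. Btg4 was present at 6449 to 16862 CPM in all pools. Low Gdf9 in 4 pools was thus not accompanied by low levels of every oocyte gene.

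Among the genes of the GDF9 and BMP15 pathway, Furin had the pattern closest to that of Gdf9 and Lhx8 the most opposite one. The list had 73 genes in 7 roles, all of which were in the table. The 36 that passed the filter on low counts were tested, and 15 had no read in any library. A count of 0 allows a level of up to 0.243 to 0.374 CPM (3 counts per library, counting error only). Over the 24 list members of at least 10 CPM, the median r was 0.35 with Gdf9 and 0.01 with Bmp15. With Gdf9, 1 of the 24 had r above 0.9 and 1 had r below −0.9, beside 4.14% and 1.85% of all genes compared, so the first count was at the background. The 6 transcription regulators among them ran from −0.90 to 0.53, with a median of −0.15.

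Furin, the convertase that cuts precursors of this family, had r = 0.96 with Gdf9 and was the only processing gene of at least 10 CPM. It held 1.95 and 0.37 CPM in HFD replicates 1 and 2 and 10.6 to 17.3 CPM in the other HFD pools. In CD it held 0.77 and 0.62 CPM in replicates 2 and 4 and 10.5 to 27.8 CPM in the others. Furin and Gdf9 were thus low in the same 4 pools of 12. Of the other convertases, Pcsk5, Pcsk6 and Pcsk7 stayed at or below 6.78 CPM in every pool.

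Lhx8, a LIM-homeobox factor needed by early oocytes, showed the reverse pattern (r = −0.90). It stood at 207 and 217 CPM in HFD replicates 1 and 2 and at 203 and 265 CPM in CD replicates 2 and 4. In the other 8 pools it stood at 23.6 to 47.7 CPM, except for 146 CPM in HFD replicate 3. Tgfb3, another ligand of the superfamily, had r = −0.89, with 61.5 to 83.7 CPM in those 4 pools, 48.8 CPM in HFD replicate 3 and 6.75 to 24.9 CPM in the rest. Nobox, the homeodomain regulator of oocyte genes, had r = −0.65. It held 171 to 294 CPM in the 4 pools and 56.0 to 130 CPM in 7 of the others, but its highest level, 512 CPM, was in HFD replicate 3.

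**Figure D4:**
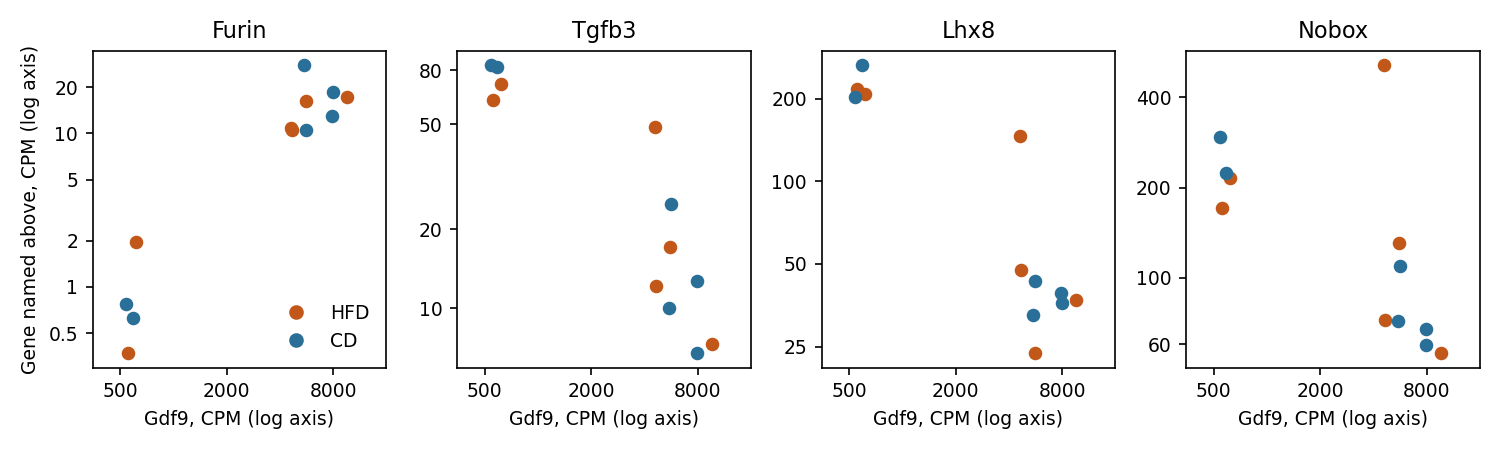
CPM of Furin, Tgfb3, Lhx8 and Nobox against CPM of Gdf9 in 12 libraries, with log axes and colour for diet. Furin was below 2 CPM where Gdf9 was at most 616 CPM, while Tgfb3 and Lhx8 were highest there; the HFD point apart from the rest in the 3 right-hand panels is replicate 3.

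Between the diets, no list member passed the threshold in edgeR, as no gene did. DESeq2 called 2 list members, of 54 that it gave a p-value, beside 7.42% of all genes that it gave an adjusted p. Of the 36 tested with edgeR, 28 had a log2 fold change below 0 and 8 above, with a median of −0.40. Over all 9935 genes, 4787 were below and 5148 above, with a median of 0.04. At an unadjusted edgeR p under 0.05, 8 members were lower and 1 higher, where 8.89% of all tested genes were lower and 13.4% higher. Without CD replicate 3, 3 members were lower at that p, beside 490 of 10193 tested genes. Leaving out HFD replicate 1, 2 or 4 gave 5, 4 and 5 lower members. Beside these, 653, 845 and 751 genes were lower among the 10141, 10152 and 10219 tested. With the libraries scaled by total counts alone the median over all genes was −0.06 and that of the list −0.52. Tested list members had longer transcripts (median 4754 nt) than the tested genes with a known length (3116 nt), and the slope of expression on length was −0.17 ± 0.17 in HFD and 0.17 ± 0.21 in CD libraries (SD, n = 6), relative to the mean of the libraries. Reads given to no gene made up 69.0 ± 2.63% of tallied reads in HFD (66.5% to 72.9%) and 64.9 ± 1.58% in CD (62.3% to 66.6%; SD, n = 6). The part of length and of these reads in the list's median was not tested.

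Among the ligands, Tgfb2 was the most abundant list member, with an HFD mean of 1416 ± 336 CPM and a CD mean of 1071 ± 190 CPM (SD, n = 6 here and below) (log2 fold change 0.40 ± 0.23 SE; edgeR, adjusted p = 0.322). Bmp6, which oocytes also secrete, differed by −0.53 on the log2 scale (edgeR, adjusted p = 0.369) and is named after its value was seen. Fgf8, an oocyte factor that acts on cumulus metabolism with BMP15, had the only unadjusted p under 0.05 in the higher direction. Its log2 fold change of 3.66 ± 1.12 (edgeR, adjusted p = 0.104) came from HFD replicate 3, where it reached 147 CPM while the other 11 pools had 1.06 to 4.30 CPM, and was 0.49 without that pool. Bmp4, Gdf3, Gdf10, Amh and Nodal had no read.

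All 8 tested receptor genes had log2 fold changes below 0, with a median of −0.60. Bmpr2, the receptor shared by GDF9 and BMP15, averaged 38.4 ± 10.4 CPM (HFD) and 61.2 ± 24.9 CPM (CD) (log2 fold change −0.67 ± 0.31 SE; edgeR, adjusted p = 0.222), with HFD pools at 30.3 to 57.4 CPM and CD pools at 35.8 to 98.0 CPM. Bmpr1b, the partner receptor for BMP15, averaged 79.6 ± 19.6 (HFD) and 127 ± 89.5 CPM (CD), or −0.68 as log2 fold change (edgeR, adjusted p = 0.298) that was −0.24 without CD replicate 3. The betaglycan gene Tgfbr3 stood at 13.4 ± 3.85 and 29.3 ± 16.1 CPM, without overlap between the diets (log2 fold change −1.12 ± 0.36 SE; edgeR, adjusted p = 0.110; DESeq2, 0.0380). Acvr1c, Tgfbr2 and Amhr2 had no read.

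The role of SMADs and their intracellular regulators showed the same sign, with all 9 tested members below 0 and a median of −0.53. The 9 include the regulators Ski, Smurf1, Smurf2 and Zfyve9, which are not SMADs and had −0.29 to −0.06. Smad5, a mediator of BMP signals, had the smallest adjusted p of the list, with an HFD mean of 6.47 ± 1.36 CPM and a CD mean of 14.7 ± 4.97 CPM (log2 fold change −1.19 ± 0.33 SE; edgeR, adjusted p = 0.0956; DESeq2, 0.0102). Smad1, its close relative, averaged 39.1 ± 13.0 (HFD) and 64.3 ± 10.5 CPM (CD), or −0.72 as log2 fold change (edgeR, adjusted p = 0.167). The diets did not overlap for Smad1, Smad5 and Tgfbr3, 3 of the 36 tested list members, against 2.45% of all tested genes. Of the SMADs downstream of GDF9, Smad2 had −0.53 and Smad3 −0.76 (edgeR, adjusted p = 0.199 and 0.235). Smad3 overlapped between the diets, with CD replicates 1 and 3 at 176 and 235 CPM, the other 4 CD pools at 52.9 to 116 CPM and the HFD pools at 53.7 to 121 CPM.

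In the remaining roles, Pcsk7, a convertase at 1.25 to 4.82 CPM, had a log2 fold change of −1.04, and Furin had −0.32 ± 0.88 SE (edgeR, adjusted p = 0.178 and 0.864). The antagonists had 1 tested member of 9, Fstl3, a follistatin-like binder of activins, at 0.24 (edgeR, adjusted p = 0.778), while Nog, Grem1, Chrd and Cer1 had no read. Among transcription regulators, Taf4b, a subunit of the general factor TFIID in germ cells, had −1.15 ± 0.47 SE (edgeR, adjusted p = 0.170). Nobox had 0.48, which was −0.11 without HFD replicate 3, and Lhx8 had 0.13 (edgeR, adjusted p = 0.639 and 0.927).

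**Figure D5:**
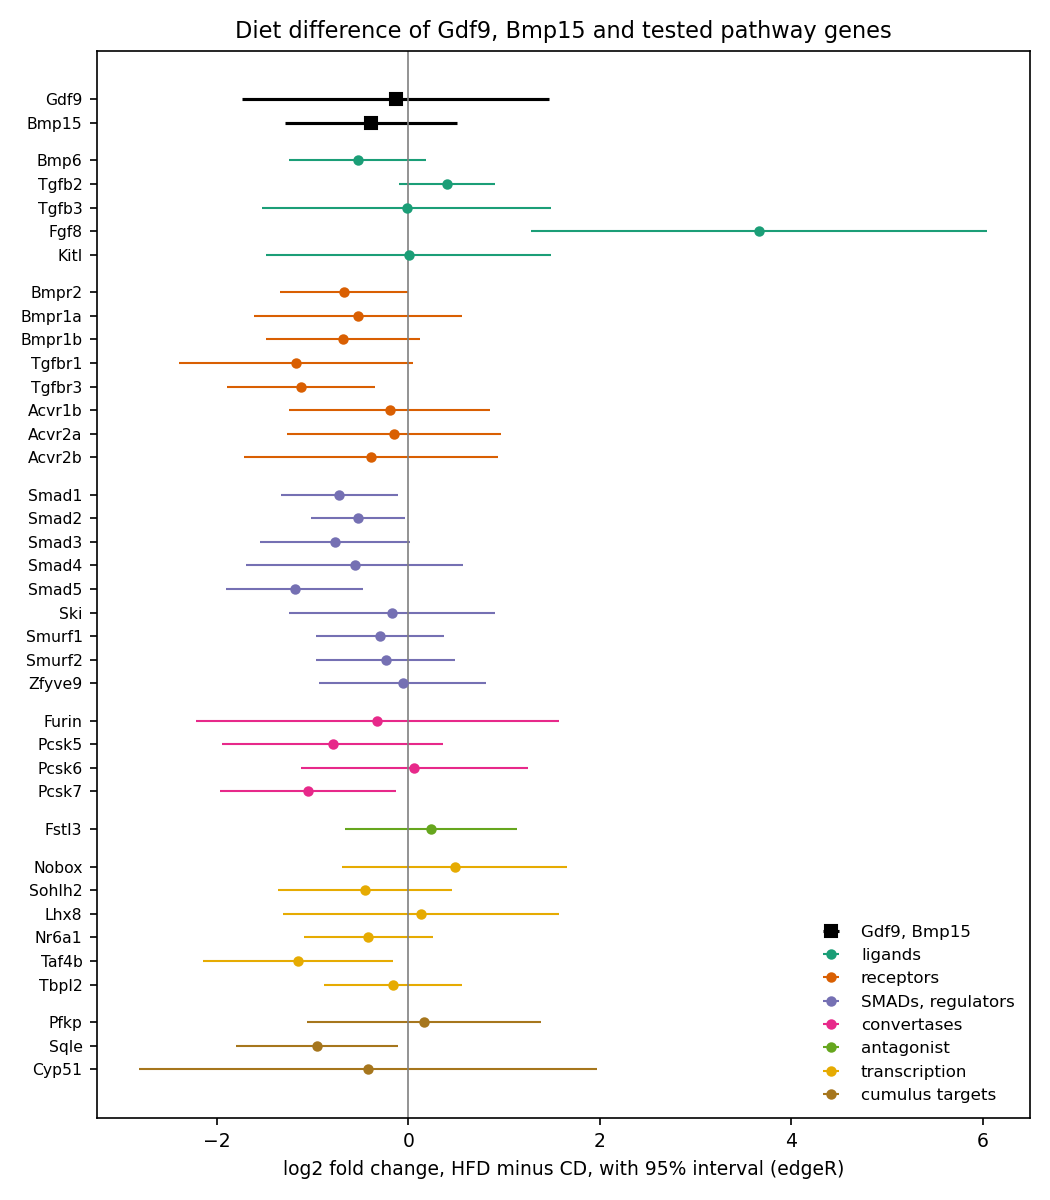
log2 fold change, HFD minus CD, with its 95% interval from edgeR (n = 6 per diet) for Gdf9 and Bmp15 (black squares) and the 36 tested pathway genes (circles), coloured by role. All receptors, SMADs and SMAD regulators shown lie below 0, none of the genes passed the adjusted threshold in edgeR, and Fgf8 rests on 1 HFD pool.

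Cumulus cells, where GDF9 and BMP15 act, left little RNA in the pools. The 24 cumulus and granulosa markers summed to 30.1 to 61.8 CPM in HFD and 40.9 to 101 CPM in CD. Only 2 of them were tested. Among the 24, Cyp19a1 held 14.9 to 52.3 CPM, and Inha reached 8.92 CPM (110 reads) in HFD, with no read in CD. Amh, Amhr2, Ptx3, Areg, Slc38a3 and Sult1e1 were at 0 in all 12 libraries. Of the 9 genes known to answer to the factors in cumulus cells, Ptx3 and Slc38a3 had no read, and Has2, the hyaluronan synthase of cumulus expansion, stayed at or below 2.12 CPM. Sqle, a cholesterol synthesis enzyme that the oocyte also expresses, averaged 10.8 ± 4.72 CPM (HFD) and 20.9 ± 8.21 CPM (CD) (log2 fold change −0.95 ± 0.40 SE; edgeR, adjusted p = 0.181), and Pfkp, a glycolytic enzyme, had 0.16 (edgeR, adjusted p = 0.891). Markers of oviduct epithelium summed to 7.55 to 110 CPM in HFD and 14.1 to 216 CPM in CD. Cdh1 among them, a cadherin present in oocytes too, held 2.21 to 99.0 CPM in HFD and 3.49 to 211 CPM in CD. Most of the highest sum was thus Cdh1. Its r with Gdf9 was 0.97, and the part of oviduct cells in this was not tested.

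The nearest gene to Gdf9 did not share its pattern. Uqcrq, a small subunit of respiratory complex III, starts 191 nt away on the opposite strand (chromosome 11, 53427922 to 53430831) and had r = −0.30 with Gdf9. It ranged from 1.89 to 35.0 CPM in 11 pools and held 389 CPM in HFD replicate 3 (log2 fold change 3.47 ± 0.96 SE; edgeR, adjusted p = 0.0944). In RefSeq the gene bodies of Gdf9 and Uqcrq overlap by 58 nt, the library chemistry does not mark strand, and reads there cannot be assigned to one of them. Gm10447 lies on the other side of Gdf9. Beside Bmp15, Nudt10 and Shroom4 lie at 141091 and 79132 nt and had at most 22 reads in any library.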

How the data were processed

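The deposited table holds raw read counts per gene symbol, not normalized, for 12 libraries of full-length cDNA made by template switching and tagmentation, per the labels' protocols. Per the submitters' processing notes, STAR, HTSeq 1.0.0, DESeq2 1.0.19 and mm10 were used; annotation and strand setting were not stated in these sources. The 5 tally lines of the counter, 62.3% to 72.9% of tallied reads, stayed out of library sizes and tests. Diets were compared with edgeR 4.0.16 (R 4.3.3), TMM scaling, the default filter on low counts, the robust quasi-likelihood test with diet as the only term, and Benjamini-Hochberg adjustment over 9935 genes. The model was tested on simulated data. Spread between libraries was set lower there than edgeR estimated for Gdf9 or Bmp15. Standard errors come from the fold change and F. CPM per kilobase uses the longest coding transcript of GENCODE M21. Log values use a prior count of 2, and the ratio adds 0.5 to each count. DESeq2 1.42.0 and limma 3.58.1 were alternatives. Reads carry no molecular identifiers. The genes and lists were chosen with earlier results of these data known. Named pathway genes have an unadjusted p under 0.05 or are the 2 most abundant tested members of their role; others were chosen after their values were seen, apart from genes given with no read, the most like genes, neighbours and markers.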

Additional observations from a re-analysis of the deposited data

Results flagged for a closer look

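Within a diet, 1 library stood apart from the other 5 in 6 of the 42 sets of 6 values examined. For a single set, chance gives about 1 in 20. That rate cannot be applied to the 6, since some genes were named for a small p in these data and libraries recur. Bmp15 held 1880.0 CPM in CD replicate 3, with the next CD library at 680 CPM. In the same library Bmpr1b held 302 CPM, with the next at 117 CPM, and Tgfbr3 held 61.3 CPM, with the next at 29.5 CPM. In HFD replicate 3, Fgf8 held 147 CPM, with the next HFD library at 4.30 CPM, and Nobox held 512 CPM, with the next at 216 CPM. Taf4b held 27.4 CPM in HFD replicate 5, with the next at 11.7 CPM. Gdf9 and the log2 ratio had no such single library, since 2 pools of each diet lay in the low range.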

How the results depend on the processing

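Direction was not stable for either gene when single libraries were left out. The log2 fold change ran from −0.55 to 0.098 for Gdf9 and from −0.59 to 0.025 for Bmp15, and the difference in log2 ratio from −0.12 to 0.86, none past the threshold. Among named pathway genes, leaving out single libraries also changed the sign for Tgfb3 (−0.32 to 0.41), Lhx8 (−0.16 to 0.67), Nobox (−0.11 to 0.85), Furin (−0.58 to 0.11), Fstl3 (−0.14 to 0.39) and Pfkp (−0.14 to 0.63), and the cause was not tested. Scaling by DESeq2's size factors or by totals, dropping the filter, halving the all-even libraries, and using DESeq2 or limma kept the direction of Gdf9 and Bmp15. Adjusted p ran from 0.717 to 0.979 for Gdf9 and from 0.458 to 0.981 for Bmp15 over all settings. The number of genes called was 709 with DESeq2 and 35 with limma-voom, where edgeR called 0. The correlation of same-numbered deviations ran from −0.45 to 0.55, which does not settle whether the replicate numbers pair the libraries. With the number as a block, the log2 fold change was −0.28 for Gdf9, −0.42 for Bmp15 and 0.30 for Tgfb3, the ratio differed by 0.30 (exact sign-flip test, p = 0.656), and 0 genes were called, with 1255 at an unadjusted p under 0.05 against 2215 without it. Under the block 2 list members were lower at that p, against 8 without it, and 526 of all 9935 tested genes were, against 883. The list's median stayed below 0 in all settings (−0.61 to −0.30 with single libraries left out). Depth limits genes of few reads such as Pcsk7, not Gdf9 or Bmp15.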
